A study of Homo sapiens with 17 samples.

Results

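The translation elongation factor genes EEF1A1, EEF1B2, EEF1D, EEF1G and EEF2, the kinase gene EEF2K, and TPT1, PABPC1 and NACA were followed in ribosome footprints and in mRNA after a Cas9 cut. These 9 genes were chosen by name, as genes whose mRNAs mostly start with a 5′ terminal oligopyrimidine (TOP) tract and encode no ribosomal protein. Each gene is represented by 1 transcript per time point, the one with the most counts over all libraries. The 9 stand among 15660 counted genes at 36 h and 17023 at 72 h, and all 9 passed the filter on low counts, as did 9016 and 10896 genes in all.

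Elongation is the step of protein synthesis in which the ribosome reads the mRNA codon by codon. EEF1A1 brings each charged tRNA to the ribosome, and EEF1B2, EEF1D and EEF1G form the complex that recharges it with GTP, with EEF1G as a scaffold. EEF2 moves the ribosome along by a codon, and EEF2K phosphorylates EEF2 and thereby slows elongation. PABPC1 binds the poly(A) tail of mRNAs, NACA is the alpha subunit of the complex that binds new protein chains as they leave the ribosome, and TPT1 encodes a small, abundant protein of proliferating cells. The TOP tract is a run of pyrimidines at the cap that the protein LARP1 binds, and through it the kinase complex mTORC1 sets the translation of ribosomal protein and elongation factor mRNAs together.

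HEK293, a human embryonic kidney cell line, was electroporated with a ribonucleoprotein of Cas9 or of the catalytically dead dCas9, both with the guide sgIntron against an intron of JAK2, and lysed 36 or 72 h later. All cells therefore received a protein, a guide and the electroporation, and only Cas9 cuts. Pooled electroporations in 1 plate made 1 biological replicate. Of 17 libraries, 9 were from 36 h, with 2 Cas9 (a and c) and 2 dCas9 (d and e) footprint libraries and 3 Cas9 (a, b and c) and 2 dCas9 (d and e) mRNA libraries. The other 8 were from 72 h, with 2 libraries (e and f for footprints, a and b for mRNA) of each nuclease. Guides were synthetic at 36 h and transcribed in vitro at 72 h, and the aligner and annotation differed too, so these and time cannot be told apart.

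The kept transcripts held 689636 to 4868580 counts per footprint library at 36 h and 3183558 to 8864461 at 72 h. The mRNA libraries held 25095505 to 33350952 counts at 36 h and 33040306 to 42825659 at 72 h. Of the 4 HEK293 markers, VIM and NEFL were present in every mRNA library (at least 595 and 49.3 CPM, the counts per 1e6 counts of a library) and NEFM at 2.60 to 14.2 CPM, while PAX2 did not exceed 0.315 CPM. NEFM mRNA fell at 72 h (log2 fold change -0.89, SE 0.21, edgeR adjusted p = 0.0711), and its part in the results was not tested. Of the markers of other lineages, INS and HBB were at 0 and PTPRC and ALB did not exceed 0.732 CPM.

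The starts of the transcripts are shown because the pyrimidine run is what most of these mRNAs have in common. Each sequence covers 10 bases before and 20 bases from the first base of the RefSeq transcript (GRCh38.p14), 5′ to 3′ on the transcribed strand. Capitals mark an unbroken run of at least 5 C or T letters that covers this first base. EEF1A1 is shown from chr6:73521013-73521042, EEF1G from chr11:62573872-62573901, EEF2 from chr19:3985444-3985473, TPT1 from chr13:45341164-45341193 and NACA from chr12:56725280-56725309, all on the minus strand. EEF1B2 has 2 RefSeq starts, at chr2:206159599-206159628 and chr2:206159885-206159914, and EEF2K is shown from chr16:22206268-22206297, on the plus strand. EEF1D and PABPC1 are named only.
EEF1A1: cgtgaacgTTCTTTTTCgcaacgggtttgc
EEF2: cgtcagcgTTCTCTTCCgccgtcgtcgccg
TPT1: ctgagtcggCCTTTTCCgcccgctcccccc
NACA: ctcgctcggTCTTTCTgccgccatcttggt
EEF1B2 (downstream start): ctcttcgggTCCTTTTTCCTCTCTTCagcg
EEF1B2 (upstream start): aagtggccccagcctcgaggccgggcgtct
EEF1G: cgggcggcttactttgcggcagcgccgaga
EEF2K: gcccgcttctgctcaacctagaccagcccc
A run was found at 5 of these 8 starts, with 7 letters in NACA, 8 in TPT1, 9 in EEF1A1 and EEF2 and 17 at the downstream start of EEF1B2. EEF2K and, at this annotated base, EEF1G have none. Over all 35116 RefSeq starts, searched on the same strand, 9.60% hold such a run, against 65.4% of the 78 starts of ribosomal protein genes. A match describes the letters at an annotated start and no more.

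The member genes differed widely in level. Per kb of counted coding length, EEF1A1 had the highest mRNA level of all tested genes in dCas9 cells, with means of 11739 ± 516 CPM (scaled by TMM) per kb at 36 h and 11335 ± 281 at 72 h (SD, n = 2). EEF1G followed with 4204 ± 356 and 3579 ± 266, then EEF2 with 2955 ± 81.3 and 2855 ± 193 and NACA with 2475 ± 320 and 2240 ± 30.3. TPT1 (1348 ± 151 and 1478 ± 132) and EEF1B2 (1139 ± 84.5 and 1146 ± 6.39) came next. EEF1D (339 ± 32.7 and 225 ± 17.7) and PABPC1 (300.03 ± 27.1 and 316 ± 29.9) were lower, and EEF2K was lowest at 10.6 ± 2.77 and 12.6 ± 0.809. Over the libraries of both nucleases, the mRNA ranges of EEF1D and PABPC1 met at both time points and those of EEF2 and NACA at 72 h, and the other neighbours in this order did not meet. The value of EEF1D is divided by the length of a long transcript, a different one at each time point (627 counted codons at 36 h and 678 at 72 h). At 72 h most EEF1D counts lie in the part that the long form shares with the shorter form described below.

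**Figure D1:**
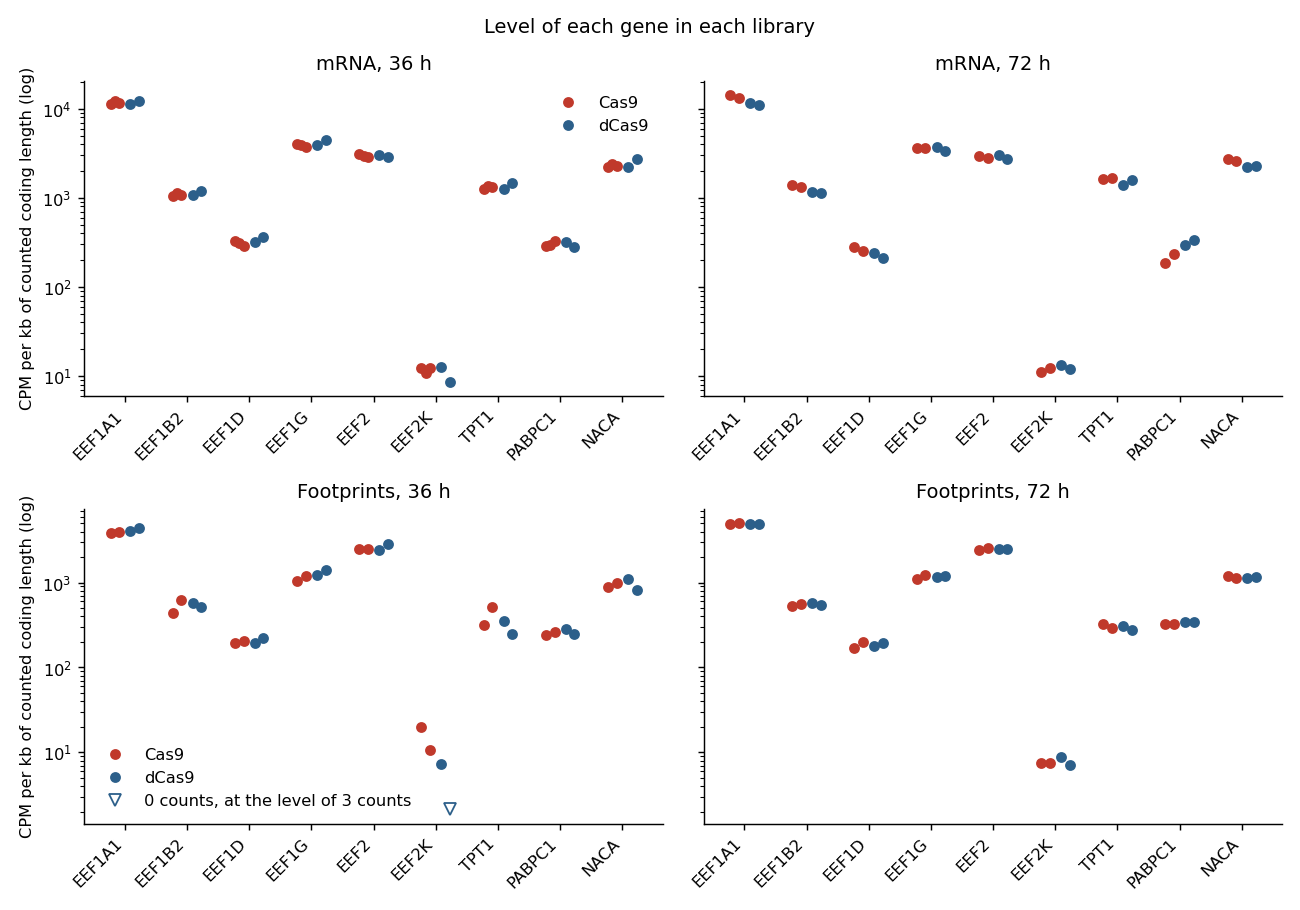
The level of each of the 9 genes in each library, in CPM per kb of counted coding length on a log axis, for mRNA (top) and footprints (bottom) at 36 h (left) and 72 h (right), with 1 point per library in red for Cas9 and blue for dCas9. EEF1A1 is highest in all 4 panels and EEF2K lowest, and the open triangle marks the dCas9 footprint library e at 36 h, where EEF2K had 0 counts, at the level of 3 counts.

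Footprints put the genes in another order. In dCas9 cells at 72 h, EEF1A1 (4876 ± 40.7 CPM per kb) was followed by EEF2 (2506 ± 6.61), and EEF1G (1184 ± 16.3) and NACA (1146 ± 12.9) had ranges that met over the libraries of both nucleases. EEF1B2 had 557 ± 17.4, PABPC1 342 ± 3.43, TPT1 295 ± 21.6, EEF1D 186 ± 11.2 and EEF2K 7.87 ± 1.19 (SD, n = 2 each). TPT1 and PABPC1 also had ranges that met. The 9 genes together took 1.40% to 1.66% of the counts of a footprint library and 2.95% to 3.43% of those of an mRNA library. EEF1A1 alone took a mean of 1.51% of the dCas9 mRNA counts and 0.549% of the dCas9 footprint counts at 36 h.

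Footprint CPM divided by mRNA CPM gives the footprints per mRNA. At 36 h it was taken within a lysate, and at 72 h, where no letters link the library types, over the mean mRNA of the group, so that its spread at 72 h leaves out that of the mRNA. The median over all tested genes was 0.849 to 0.885 in every footprint library. TPT1 was lowest of the 9 at 72 h, with 0.199 and 0.178 in the Cas9 libraries e and f and 0.210 and 0.189 in the dCas9 libraries e and f. EEF1G lay between 0.263 and 0.339 over the 8 footprint libraries and EEF1A1 between 0.335 and 0.433, which placed EEF1A1 between the 6.95th and 16.4th percentile of tested genes. NACA (0.303 to 0.516) and EEF1B2 (0.393 to 0.583) were also below the median gene in every library.

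EEF2, the other factor that acts in every elongation cycle, lay at 0.805 to 0.985, within the 43.6th and 57.7th percentile of tested genes. Its ratio exceeded that of EEF1A1 in all 8 libraries. Per kb, the dCas9 means at 72 h were 11335 (EEF1A1) against 2855 (EEF2) CPM in mRNA and 4876 against 2506 CPM in footprints. EEF1D had ratios of 0.600 to 0.861. EEF2K, with few footprint counts, ran from 0 to 1.61 over the libraries. PABPC1 went from 0.803 to 0.894 at 36 h to 1.08 and 1.09 in dCas9 and 1.55 and 1.53 in Cas9 cells at 72 h. The median ratio of the ribosomal protein genes tested was 0.466 to 0.554 over the libraries, and that of the 10 other TOP mRNAs was 0.649 to 0.822.

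**Figure D2:**
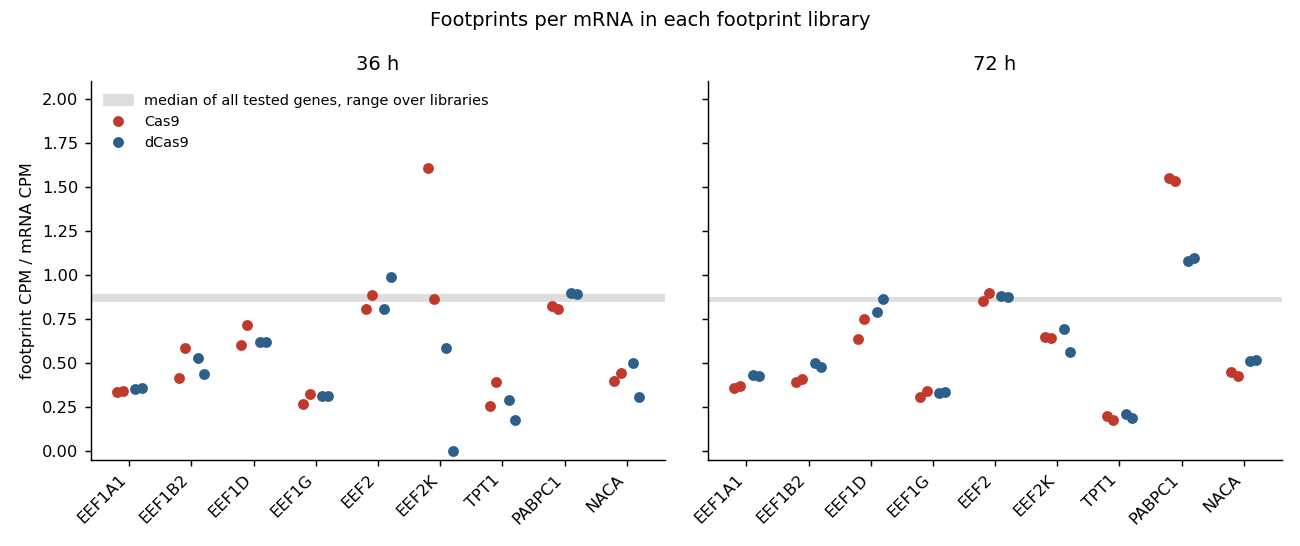
Footprint CPM over mRNA CPM for each gene at 36 h (left) and 72 h (right), with 1 point per footprint library (red Cas9, blue dCas9) and the median of all tested genes as a grey band. TPT1, EEF1G and EEF1A1 do not exceed 0.433 in any library, EEF2 lies near the band, and at 72 h PABPC1 is at 1.53 to 1.55 with Cas9 and 1.08 to 1.09 with dCas9.

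The comparison of Cas9 with dCas9 asks how a double-strand break changes these mRNAs and their translation. At 72 h, PABPC1 mRNA fell and no other member passed the false discovery rate of 0.1. PABPC1 (chr8:100685816-100722809, minus strand, GENCODE release 44 on hg38) had 347 and 434 CPM in the Cas9 mRNA libraries a and b and 545 and 623 in the dCas9 libraries a and b. Both Cas9 libraries were below both dCas9 libraries, with group means of 391 ± 61.5 and 584 ± 55.3 CPM (SD, n = 2 each). The change was 0.669-fold (95% interval 0.546 to 0.818), or -0.58 on the log2 scale (SE 0.13), with an adjusted p of 0.0695 in edgeR's quasi-likelihood test. In these bulk libraries, fewer cells with an mRNA and less of it per cell cannot be told apart.

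The call for PABPC1 stands beside 2.69% of tested genes called in mRNA at 72 h (293 of 10896) and 2.66% called as decreased. Of the 293, 3 rose and 290 fell, whereas an offset for GC content gave 842 that rose and 1534 that fell. Without the Cas9 mRNA library a, the change was -0.43 (unadjusted p = 0.0334 in edgeR) and the adjusted p 0.9999, and only 5 genes of the whole table were called. Leaving out Cas9 b, dCas9 a or dCas9 b gave -0.76, -0.67 and -0.48, with edgeR adjusted p-values of 0.0157, 0.0470 and 0.0476. The log2 fold change of mRNA at 72 h went with the share of G and C bases in the counted transcript's coding part over 10856 genes (Spearman's rho -0.42, a description of genes that share the libraries). PABPC1 has a GC content of 47.3%, and its change was -0.61 with an offset for GC content.

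**Figure D3:**
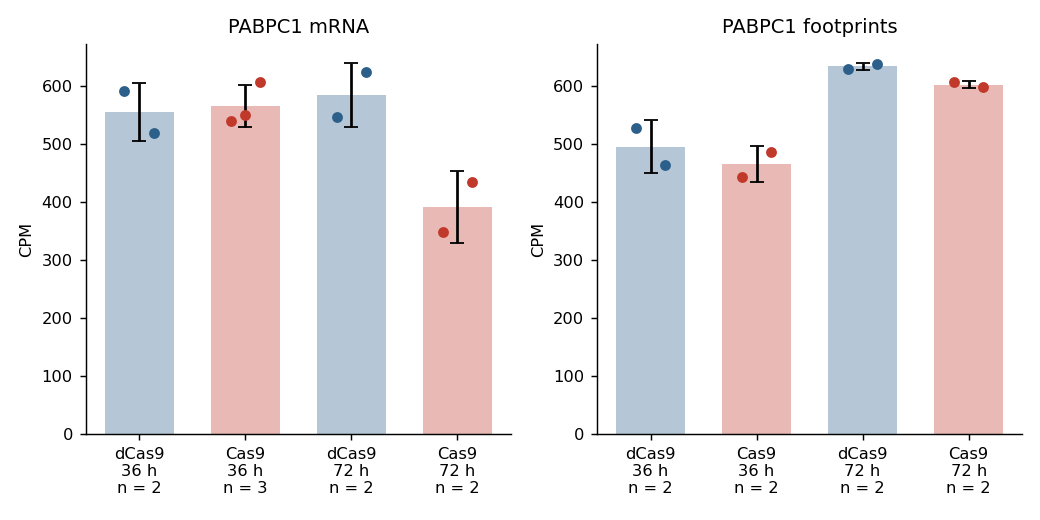
PABPC1 in mRNA (left) and footprint (right) libraries, in CPM, with the mean as a bar, the SD as an error bar and 1 point per library. In mRNA at 72 h both Cas9 libraries (347 and 434) lie below both dCas9 libraries (545 and 623), while footprints at 72 h are at 598 to 638 in all 4 libraries.

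EEF1A1, EEF1B2, EEF1D, NACA and TPT1 had more mRNA in both Cas9 than in both dCas9 libraries at 72 h, without passing the test over all genes. EEF1A1 (chr6:73489308-73525587, minus strand) had 18814 and 17644.5 CPM with Cas9 and 15327 and 14800 with dCas9. Its change was 1.21-fold (95% interval 1.06 to 1.38; edgeR adjusted p = 0.168). EEF1B2 (chr2:206159585-206162928, plus strand) had 851 and 821 CPM against 711 and 705, a change of 1.18-fold (1.01 to 1.38; edgeR adjusted p = 0.321). EEF1D (chr8:143579697-143599541, minus strand) had 574 and 519 CPM against 483 and 432, a change of 1.19-fold (1.001 to 1.43; edgeR adjusted p = 0.337). The groups do not overlap, though the difference between the nearest EEF1D libraries is smaller than that within a group.

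NACA (chr12:56712305-56731628, minus strand) had 1603 and 1514 CPM with Cas9 against 1304 and 1330 with dCas9, a change of 1.18-fold (1.02 to 1.38; edgeR adjusted p = 0.297). TPT1 (chr13:45333471-45341284, minus strand) had 745 and 771 CPM against 636 and 721, a change of 1.12-fold (0.943 to 1.32; edgeR adjusted p = 0.505). For TPT1, as for EEF1D, the nearest libraries of the groups differ by less than the libraries within a group. These 5 genes are those whose Cas9 libraries all lay above the dCas9 libraries, where 24.4% of tested genes did so and 25.2% lay wholly below. EEF1A1 passed the threshold when both library types were fitted together (edgeR adjusted p = 0.0377), and EEF1D with an offset for GC content (0.0190). Over the alternatives that keep every library, the smallest log2 fold change was 0.062 in TPT1, 0.19 in NACA, 0.20 in EEF1B2, 0.24 in EEF1D and 0.26 in EEF1A1. GC content is 44.4% in TPT1, 46.4% in NACA, 46.8% in EEF1B2, 48.2% in EEF1A1 and 65.1% in EEF1D. Its part in these changes was not tested.

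EEF1G and EEF2 did not share this pattern. EEF2 (chr19:3976056-3985463, minus strand) had 7372 and 7016 CPM in Cas9 and 7530 and 6841 in dCas9 mRNA libraries at 72 h, a change of 1.001-fold (95% interval 0.869 to 1.15). EEF1G (chr11:62559596-62574086, minus strand) had 4508 and 4591 CPM against 4724 and 4251, a change of 1.01-fold (0.876 to 1.17). For both, the groups overlapped. EEF2K (chr16:22206278-22288738, plus strand) had 23.3 and 26.3 CPM against 27.8 and 25.4, a change of 0.932-fold (0.753 to 1.15). Over the 9 members the median log2 fold change of mRNA at 72 h was 0.16, and 7 were above 0, beside a median of 0.019 over all tested genes. Of these 7, EEF2 was below 0 in 5 of 15 alternatives and EEF1G in 2. Over the alternatives that keep every library, the log2 fold change of both reached 0.085. GC content is 60.8% in EEF2 and 54.5% in EEF1G, and its part in the difference from the other members was not tested.

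Footprints at 72 h hardly differed between the nucleases. None of the 9 genes was called by edgeR, beside 0.0367% of all tested genes. At an unadjusted p under 0.05 in edgeR there were 0 of 9 members, beside 418 of all 10896 tested genes. EEF1A1 had 6479 and 6689 CPM in the Cas9 footprint libraries e and f and 6518 and 6442 in the dCas9 libraries, a change of 1.02-fold. EEF2 had 6136 and 6433 CPM against 6319 and 6295, a change of 0.997-fold. For the 8 members other than EEF2K, the 95% intervals of the log2 fold change ran from -0.21 (PABPC1) at the lowest to 0.26 (TPT1) at the highest. EEF2K, with only 51 to 131 counts in a library, had an interval of -0.51 to 0.40. PABPC1 was the 1 member whose groups did not overlap (606 and 598 against 629 and 638 CPM, a change of 0.950-fold), where 15.9% of tested genes lay wholly below and 15.8% wholly above.

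Translational efficiency, the change of footprints relative to that of mRNA, rests on the same counts as these comparisons. At 72 h, 0.716% of tested genes passed and no member did, while 3 of 9 had an unadjusted p under 0.05 (PABPC1, EEF1A1 and EEF1B2), as did 1220 of 10896 genes. PABPC1 had more footprints per mRNA in Cas9 cells, by 1.42-fold (95% interval 1.14 to 1.77; edgeR adjusted p = 0.191). It passed in DESeq2 (adjusted p = 0.0677) and in 10 of 19 alternatives in all. EEF1A1 had a ratio of 0.841-fold (0.728 to 0.971; edgeR adjusted p = 0.351) and EEF1B2 of 0.827-fold (0.695 to 0.985; edgeR adjusted p = 0.401). EEF1D (0.840-fold), NACA (0.851-fold), TPT1 (0.942-fold) and EEF1G (0.979-fold) lay below 1, and EEF2 (0.997-fold) and EEF2K (1.03-fold) near it. With simulated counts at 72 h, 36% (mRNA), 43% (footprints) and 12% (efficiency) of genes changed by log2 0.5 were called. For changes of log2 1 it was 96%, 82% and 69%. Smaller changes were not simulated.

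**Figure D4:**
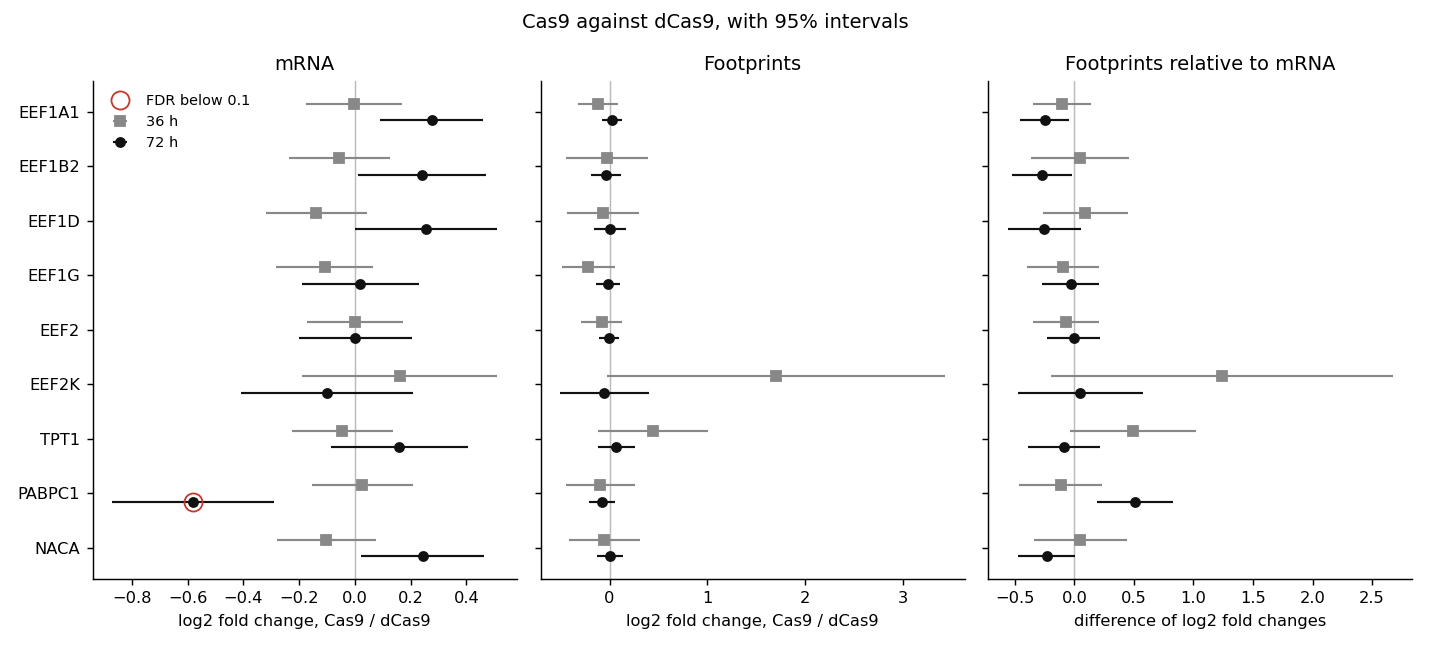
The log2 fold change of Cas9 against dCas9 for each gene in mRNA (left) and footprints (centre) and the difference of the 2 (right), at 36 h (grey squares) and 72 h (black circles), with 95% intervals from the fit. PABPC1 mRNA at 72 h, at -0.58, is the 1 value with a ring for a false discovery rate below 0.1, and the interval of EEF2K footprints at 36 h runs from -0.03 to 3.43.

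At 36 h no member was called in mRNA, in footprints or in efficiency. Of all tested genes, 0.0222% were called in mRNA, 0% in footprints and 0% in efficiency, and edgeR gave 0 of 9 members an unadjusted p under 0.05 in each. Over all 9016 tested genes, 422 in mRNA, 188 in footprints and 568 in efficiency had such a p. In simulated counts, these tests called 96% (mRNA), 13% (footprints) and 21% (efficiency) of genes changed by log2 1. For changes of log2 0.5 they called 64%, 1% and 1%, so that a missing call in footprints or efficiency says little. They also called 18 (mRNA), 1 (footprints) and 38 (efficiency) unchanged genes. In efficiency these outnumbered the changed genes called at either size. In mRNA, every member had overlapping groups, where 8.6% of tested genes lay wholly above and 8.29% wholly below. PABPC1 mRNA had 539, 549 and 606 CPM in the Cas9 libraries a, b and c and 590 and 519 in the dCas9 libraries d and e, a change of 1.02-fold (95% interval 0.898 to 1.15). EEF1A1 mRNA had 15146, 16157 and 15284.5 CPM against 15083 and 16050, a change of 0.998-fold (0.886 to 1.12). The other members ranged from 0.908-fold (EEF1D) to 1.12-fold (EEF2K) in mRNA.

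In footprints at 36 h, EEF1A1 and EEF1G lay wholly below and EEF2K wholly above the dCas9 libraries, where 14.6% and 15.9% of tested genes did so. EEF1A1 had 5072 and 5170 CPM in the Cas9 libraries a and c and 5321 and 5765 in the dCas9 libraries d and e, a change of 0.924-fold (95% interval 0.802 to 1.07). EEF1G had 1317 and 1512 CPM against 1552 and 1741, a change of 0.861-fold (0.713 to 1.04). TPT1 had 145 and 235 CPM against 162 and 114, a change of 1.36-fold (0.922 to 2.01), and its groups overlapped. EEF1B2, EEF1D, EEF2, PABPC1 and NACA lay between 0.936-fold and 0.983-fold.

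EEF2K at 36 h shows how little these footprint counts carry for a low gene. It had 39 and 56 footprint counts in the Cas9 libraries a and c and 77 and 0 in the dCas9 libraries d and e. In CPM these are 41.9 (exact 95% counting interval 29.8 to 57.3), 22.6 (17.1 to 29.3) and 15.5 (12.3 to 19.4), and for the 0 the same interval reaches 5.55 CPM. The level of 3 counts in that library, marked in the plot of levels in its value per kb, is 4.51 CPM, and these limits cover counting error only. The fitted change was 3.25-fold (95% interval 0.979 to 10.8; edgeR unadjusted p = 0.0538, adjusted p = 0.999). Chosen after this value was seen, 1438 tested genes with 60 to 95 counts in dCas9 d had a median of 9 counts in dCas9 e, and 79 of them had 0 there. At 72 h EEF2K footprints were 16.0, 15.9, 18.5 and 14.9 CPM in Cas9 e and f and dCas9 e and f.

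The change at 72 h was set against that at 36 h in 1 fit per library type. No member passed, beside 0.613% of 8970 genes in mRNA and 0% in footprints. In mRNA, PABPC1 had the largest difference among the members (log2 -0.62, SE 0.16, edgeR unadjusted p = 0.00180, adjusted p = 0.152). EEF1D (0.39), NACA (0.34), EEF1B2 (0.29) and EEF1A1 (0.27) had log2 differences above 0 with unadjusted p-values of 0.0120 to 0.0320 in edgeR and adjusted p-values of 0.283 to 0.369. EEF1D alone of the members had a different kept transcript at each time point, and the part of this in its difference was not tested. Of all 8970 genes, 1068 had an unadjusted p under 0.05 in this comparison. For EEF2 the difference was -0.01 (95% interval -0.23 to 0.22). In footprints, 0 of 9 members had an unadjusted p under 0.05 in edgeR, beside 287 of 8970 genes in all. In simulated counts, that footprint test called 0% of the genes given a difference of log2 1.

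EEF1D makes 2 proteins, of which the long one carries an additional N-terminal part. At 72 h, the annotation held both the long form (678 counted codons) and a shorter form, whose coding exons lie inside those of the long form. The large exon that only the long form codes in is chr8:143588991-143590231, of 1241 bases. In mRNA, 10.6% (95% exact binomial interval 10.2 to 11.1) and 11.2% (10.7 to 11.7) of the EEF1D counts of the Cas9 libraries a and b fell outside the counted part of the short form, against 13.0% (12.5 to 13.5) and 11.5% (10.996 to 11.9) with dCas9. In footprints it was 4.89% (3.70 to 6.33) and 6.18% (5.25 to 7.21) in the Cas9 libraries e and f and 6.79% (5.82 to 7.86) and 7.53% (6.67 to 8.46) with dCas9. All 4 footprint libraries were below all 4 mRNA libraries, and in both types the Cas9 libraries were below the dCas9 libraries. If the counted part leaves out the first codons of the short form, counts on those codons are in these shares, which was not examined. The shares are therefore not a measure of the long form alone. These shares were set side by side after they had been seen, and with 2 libraries a group no test was run on them. The intervals cover counting error only.

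**Figure D5:**
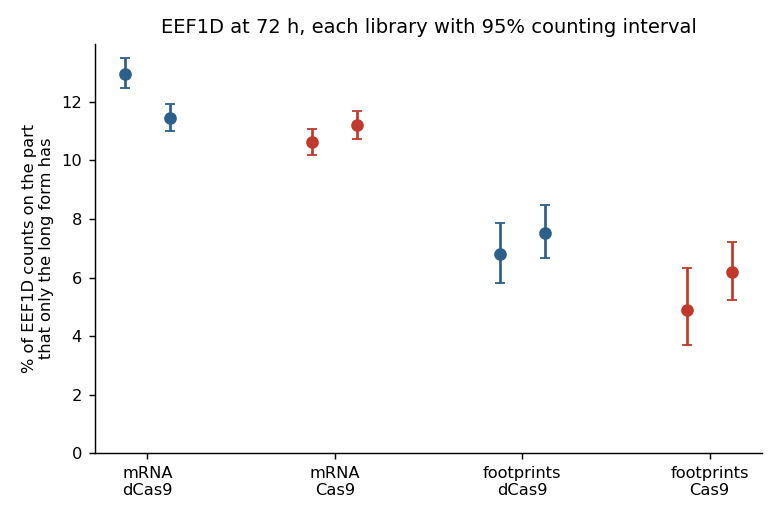
The percentage of EEF1D counts at 72 h that lie outside the counted part of the short form, for each mRNA and footprint library with its 95% exact binomial interval. Footprint libraries lie at 4.89% to 7.53% and mRNA libraries at 10.6% to 13.0%.

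Several members share sequence with other loci. EEF1A1 has a close relative in EEF1A2, and PABPC3 and NACA2 are relatives of PABPC1 and NACA. At 72 h the transcript list names pseudogene transcripts of EEF1A1 (50), TPT1 (15), PABPC1 (13), EEF1B2 (8), EEF1D (8), EEF1G (8) and NACA (6), all with no counts. The missing counts do not show that no reads fit these loci. How reads that fit several loci were assigned was not examined here, so these levels are uncertain by an amount the counts do not show. EEF1A2 was measured at 43.0 ± 5.28 CPM in Cas9 and 43.2 ± 5.87 in dCas9 mRNA at 72 h (SD, n = 2), and its groups overlapped. The 3 transcripts of EEF1A1 and of EEF1B2 and the 4 of NACA with the highest count had the same count, so the kept one stands for all of them.

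Other genes of elongation and of TOP mRNA control were read by fixed lists, described by counts and medians. Ribosomal protein genes, the other large group of TOP mRNAs, had a median log2 fold change of 0.19 in mRNA at 72 h over the 76 tested, of which 60 were above 0, beside 0.019 over all tested genes. By edgeR, 1 rose and 3 fell, the latter being RPS16 (-1.96, adjusted p = 0.00177), RPL28 (-1.11, adjusted p = 0.0254) and RPLP1 (-0.74, adjusted p = 0.0243). Their median was 0.013 in footprints and -0.15 in efficiency at 72 h, beside 0.0017 and 0.0010 over all tested genes. For the 9 members the corresponding medians were -0.0050 and -0.086. At 36 h, 3 of 75 ribosomal protein genes and 2 of 9 members were above 0 in mRNA, with medians of -0.077 and -0.046 beside 0.0016 over all genes, and none was called.

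The 10 other TOP mRNAs had 1 gene that fell and none that rose in mRNA at 72 h. HNRNPA1, a splicing factor, went from 1790 ± 162 CPM with dCas9 to 1287 ± 99.2 with Cas9 (SD, n = 2), a log2 fold change of -0.48 (edgeR adjusted p = 0.0711). The median of the list was 0.12, with 7 of 10 above 0. NPM1, a nucleolar chaperone, had a log2 fold change of 0.32 (edgeR adjusted p = 0.235), EIF3E 0.41 (0.301) and RACK1, a scaffold on the small ribosomal subunit, 0.22 (0.342). VIM (0.18), EIF3F (0.12), EIF4B (0.12), BTF3 (0.02), EIF3H (-0.02) and NAP1L1 (-0.12) were closer to 0. In footprints at 72 h the 10 lay between -0.02 and 0.16 on the log2 scale and none was called.

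Of the other cytosolic elongation factors, EEFSEC, which brings selenocysteine to the ribosome, fell in mRNA at 72 h. It went from 15.9 ± 0.6495 CPM with dCas9 to 8.41 ± 1.44 with Cas9 (SD, n = 2), a log2 fold change of -0.91 (edgeR adjusted p = 0.0282), while its footprints had a log2 fold change of 0.01. EIF5A, which helps the ribosome past stretches of proline, had a log2 fold change of -0.46 in mRNA (edgeR adjusted p = 0.113) and 0.04 in footprints. EEF1A2 had -0.01 in mRNA. These were 3 of the 4 genes of the list that were tested, of 5, and 1 of the 4 fell and none rose.

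Among the enzymes that modify elongation factors, 12 of 15 were tested at 72 h and none was called in any comparison. Their median log2 fold change at 72 h was 0.075 in mRNA and 0.023 in footprints, and DPH2, of the pathway that makes the diphthamide residue of EEF2, had 0.06 in mRNA (edgeR adjusted p = 0.840). The 5 mitochondrial elongation factors, which serve another ribosome, had a median of 0.19 in mRNA, with 5 of 5 above 0 and none called. The partners and relatives of NACA and PABPC1 had a median of -0.059 over 8 tested genes, with none called, and BTF3, the beta subunit that pairs with NACA, had 0.02 where NACA had 0.24.

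Of 13 genes for TOP mRNA binding and mTORC1 signalling, 2 fell and none rose in mRNA at 72 h. These were MLST8 (84.1 ± 0.478 to 59.2 ± 0.874 CPM, log2 -0.51, edgeR adjusted p = 0.0782) and AKT1S1 (22.7 ± 2.37 to 14.9 ± 1.17 CPM, log2 -0.60, edgeR adjusted p = 0.0865), both parts of mTORC1. LARP1 had 293 to 348 CPM with Cas9 and 435 to 442 with dCas9, a log2 fold change of -0.45 that did not pass (edgeR adjusted p = 0.109). MTOR had -0.17 (edgeR adjusted p = 0.485) and RPS6KB1, a kinase downstream of it, 0.06 (0.842). The median of the list was -0.17 in mRNA and 0.034 in footprints, and none of the 13 was called in footprints or efficiency.

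Over the 9 mRNA libraries, the log2 CPM of the 8 members other than EEF2K, centred on each time point, was averaged to a profile. NACA (Pearson's r 0.96), EEF1B2 (0.90), EEF1D (0.86), TPT1 (0.78), EEF1A1 (0.76) and EEF1G (0.72) ran with it, each being part of the mean. EEF2 did not (-0.06), and PABPC1 (-0.72) and EEF2K (-0.85) ran against it. The 3 genes outside the group most like the profile among 8970 genes were MTCH2 (0.99), MOXD1 (0.98) and YWHAQ (0.98), given as a description of 9 libraries that share the contrast of the nucleases.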

How the data were processed

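Ribosome footprints and mRNA of HEK293 cells were measured in 17 libraries. The authors removed adapters, aligned reads (HISAT2 2.1.0 and GRCh38 per the submitters' notes, with tophat at 72 h per the methods) and counted them with fp-count. The deposited values are raw counts for each transcript, with its counted coding length in codons. The Cas9 b footprints of 36 h were not analysed here. At 72 h, titles of 2 footprint libraries read rcas9, and the treatment label gave the nuclease.

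Transcripts were matched by identifier to GENCODE release 44, with 3.741% (36 h) and 4.218% (72 h) of counts unmatched. The members and the gene lists were chosen with earlier results of these data known. Every member is named, and of each list up to 3 genes with the smallest adjusted p past the threshold, beside 16 genes named whatever their values. PABPC3 and NACA2 are named as well, with their values known. One marker of another lineage is not reported here.

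Each library type and time point was fitted alone in edgeR 4.0.16 (R 4.3.3, TMM, quasi-likelihood test), with a joint fit for efficiency and for the difference between time points. Tested genes averaged 20 counts or more in the footprint and in the mRNA libraries of a time point. P-values were adjusted by Benjamini-Hochberg over all tested genes at a false discovery rate of 0.1. SEs and 95% intervals come from the log2 fold change and F. The scripts were tested on simulated data. Alternatives were median-ratio size factors, library totals, other count filters, GC offsets, DESeq2 1.42.0, limma 3.58.1, joint fits, the transcripts kept at 36 h, the replicate block and each library left out. The exact intervals of counts and shares, and the floors, cover counting error only.

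At 36 h, footprint and mRNA libraries of a nuclease share replicate letters. At 72 h, Cas9 and dCas9 libraries of a type share them, which was not shown to pair the samples. Deviations of libraries that share a letter correlated between -0.15 and 0.079, and the main fits took no pairing from the letters. The ratios at 36 h were taken within a letter, as the paper states that lysates were divided between the library types.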

Additional observations from a re-analysis of the deposited data

Results flagged for a closer look

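Of the genes named, 3 ribosomal protein genes had a change in mRNA at 72 h that differed from that at 36 h in edgeR's test of the difference itself. The log2 difference was -1.84 for RPS16 (adjusted p = 0.00166), -0.62 for RPLP1 (adjusted p = 0.0679) and -0.999 for RPL28 (adjusted p = 0.0682). Guides, aligner and annotation differ between the time points too and cannot be told apart from time.

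For 2 further genes every Cas9 library lay on one side of the dCas9 libraries at 36 h and on the other at 72 h. MTOR footprints were lower in Cas9 at 36 h and higher at 72 h, with a log2 difference of 0.27 that did not pass (edgeR adjusted p = 0.999). EIF4B mRNA did likewise, with a log2 difference of 0.20 that did not pass (edgeR adjusted p = 0.506). Of all tested genes, 14.6% lay wholly below in footprints at 36 h and 15.8% wholly above at 72 h. In mRNA these shares were 8.29% and 24.4%. How many of all genes switched sides was not counted. No member gene met either condition.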

How the results depend on the processing

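With 2 libraries in most groups, the spread is poorly known and footprint depth at 36 h limits low genes. Among member values, none reversed a call, 1 lost its call, 32 gained one and 93 uncalled values changed sign over the alternatives. The lost call was PABPC1 mRNA at 72 h without the Cas9 library a, where log2 was -0.43, and it held in 14 of 15 alternatives (log2 -0.76 to -0.48). EEF1A1 mRNA at 72 h passed in 4 of 15, and EEF2K footprints at 36 h passed (log2 8.43, edgeR adjusted p = 0.0235) without dCas9 d, which left as the arm the 1 library with 0 counts. Where an arm kept 1 library, that library was assumed to vary like the others.

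Counts of genes called over the whole table moved more. In mRNA at 72 h (293), they were 185 with median-ratio size factors, 493 with any count, 2376 with GC offsets and 614 with both library types fitted together, and 5 to 2828 with a library left out. In efficiency at 72 h (78), they were 170 with median-ratio factors, 126 with library totals, 260 with any count, 627 with GC offsets, 221 in DESeq2 and 136 in limma voom, and 1 to 1065 with a library left out. In footprints at 72 h (4), they were 7 with GC offsets and 0 in the joint fit, and 1 to 41 with a library left out. In mRNA at 36 h (2), they were 0 with median-ratio factors, library totals, GC offsets, DESeq2, the joint fit and matched libraries, 1 with filterByExpr, and 0 to 218 with a library left out. In footprints and efficiency at 36 h (0 each), they were 0 to 72 and 0 to 474 with a library left out, and 1 for efficiency in DESeq2. For the difference between time points, footprints (0) gave 0 to 40 and mRNA (55) gave 1 to 269 with a library left out, and mRNA gave 100 with library totals and 586 with GC offsets. The cause was not tested.

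The replicate block gave 706 calls in mRNA and 7 in footprints at 72 h, and with GC offsets 2997, 7 and, in efficiency, 774. Crossed pairs, chosen after seeing the data, gave 829 in mRNA and 249 in efficiency at 72 h. With the block, PABPC1 mRNA at 72 h had an adjusted p of 0.00044 and EEF1A1 of 4.19e-06 in edgeR, and with crossed pairs 0.00414 and 0.348, so that EEF1A1 no longer passed. The letters were not shown to pair the samples at 72 h.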
